A study of Caenorhabditis elegans with 2 samples.

Results

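The genes of trehalose metabolism in the nematode Caenorhabditis elegans were examined for binding of NHR-76, a nuclear hormone receptor. The 8 genes were chosen by function, around 1 strong peak at the trehalase gene tre-1: the trehalases tre-1, tre-2, tre-3, tre-4 and tre-5, the trehalose-6-phosphate synthases tps-1 and tps-2, and the phosphatase gob-1. They are 8 of 19973 nuclear protein-coding genes. The signal at tre-1 was used in that choice, so the values below are a description and carry no test. The assay was ChIP-seq, in which chromatin fragments bound by a protein are precipitated and sequenced. The embryos were of mixed stages and both sexes, from strain OP203, whose genotype is unc-119(ed3) III; wgIs203 and which carries a transgene for the receptor fused to a C-terminal GFP-FLAG tag. Whole embryos were used in 2 biological replicates, and all comparisons are within this 1 group. The receptor was read out from a tagged transgene in the whole organism, so the tissue in which it sat on a site was not resolved.

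Trehalose is a sugar made of a pair of linked glucose units. Trehalose-6-phosphate synthase joins UDP-glucose and glucose-6-phosphate, a phosphatase then removes the phosphate, and trehalase splits the sugar back into glucose. In the worm trehalose serves as an energy store and as a protectant in drying and osmotic stress, and loss of gob-1 is known for larvae with an obstructed gut. The genes lie on chromosomes I (tre-1), II (tre-5 and tps-2), IV (tre-2), V (tre-3) and X (tre-4, tps-1 and gob-1).

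The deposited lists held 7516 peaks for replicate 1, 30000 for replicate 2 and 30000 for the pooled replicates (the candidates), and 140 on the final list. All but the final list hold background as well as peaks, so a listed peak can be background. Each peak carries the authors' signal value, whose scale is not stated, so signals and ranks were compared within a list only. Each listed peak has 1 value and no spread can be attached to it. Where a gene is given a single value in a list, it is that of its strongest peak. A peak was given to a gene when its summit lay in the gene or within 1000 bp of an annotated 5′ end.

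One gene of the 8, tre-1, had a final peak. The background was 143 of all 19973 genes (0.716%), and nothing is read from the comparison because this peak led to the choice of the genes. The peak was on chromosome I at 6554514 to 6554853 (ce11), with its summit 45 bp upstream of the 5′ end of tre-1 (6554729 to 6558665, forward strand). Its signal was 45.4, which ranked 23 of the 30000 candidates and placed tre-1 20th among the 13324 genes with a candidate when genes were ordered by their strongest one. The final list ended at a signal of 20.0, at rank 140, and the next candidate had 19.9.

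Both replicates listed the tre-1 peak, but it was among the 140 strongest peaks in replicate 2 only. In replicate 2 it had a signal of 37.0 and ranked 23 of 30000, with its summit at the same base as in the pooled list. In replicate 1 it had a signal of 5.36 and ranked 374 of 7516, outside the 140 strongest peaks of that replicate, with its summit 20 bp away and 25 bp upstream of the 5′ end. Its −log10 q of 3.16 in the pooled list was the highest value there, which 725 candidates reached. In replicate 1 it was at the highest value of 3.80, which 3188 peaks reached.

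The summit lay between a pair of divergent protein-coding genes and inside a noncoding one. On the other side of tre-1, dad-1 (6553481 to 6554290, reverse strand), which encodes a subunit of the oligosaccharyltransferase, has its 5′ end 394 bp from the summit, so the same peak counts for both genes. The annotated noncoding RNA gene F57B10.17 (6554504 to 6554709, reverse strand) contains the summit, 25 bp downstream of its own 5′ end. Which of these genes the peak bears on was not tested.

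Motifs were looked for beside the summits: the nuclear receptor half-site AGGTCA with its variant AAGTCA, the GATA-factor site TGATAA, the site GTAAACA of the FOXO factor DAF-16, and the repeat GAGAGA, each on either strand. None of the 5 motifs lay within 100 bp of the summit of the strong tre-1 peak. The sequences printed with 4 other genes show what lies under their candidates. They run 80 bp to each side of the summit on the forward strand of the RefSeq WBcel235 sequence, overlap no annotated UTR and carry the motifs in capitals.

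**Figure D1:**
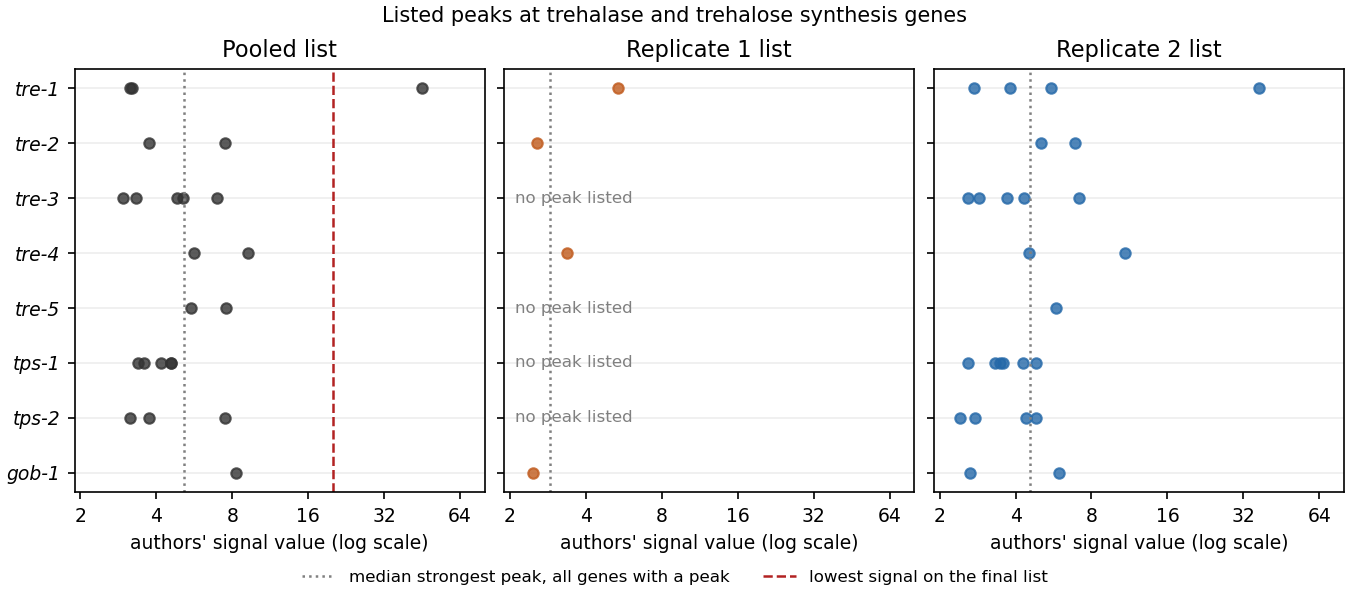
All peaks listed at the 8 genes in the pooled, replicate 1 and replicate 2 lists, 1 point per peak, with the authors' signal value on a log axis. Dotted lines mark the median strongest peak over all genes with one. In the pooled panel the tre-1 point at 45.4 is the only one right of the dashed line at the lowest final signal of 20.0, and 4 genes have no point in replicate 1.

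The other trehalase genes had weaker candidates, mostly inside the genes, which make up most of the windows searched. At tre-4 (chromosome X, 13472155 to 13475926, forward strand) the strongest candidate had a signal of 9.20 and ranked 1440, in a coding exon 2580 bp downstream of the 5′ end, at 13474565 to 13474904. Replicate 2 listed it at 10.9 with rank 471, its summit 25 bp from the pooled one. Replicate 1 listed a single peak at tre-4, with a signal of 3.38 and rank 2084, in an intron, and its summit was 576 bp from the nearest one of replicate 2. Both replicates thus listed a peak in tre-4, but not at one site. The window of the strongest candidate, shown because it was the strongest after that of tre-1, spans chrX:13474655-13474815 and holds none of the motifs.
tre-4: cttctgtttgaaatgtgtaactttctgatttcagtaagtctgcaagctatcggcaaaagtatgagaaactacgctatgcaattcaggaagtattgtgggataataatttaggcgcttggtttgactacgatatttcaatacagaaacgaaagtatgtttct

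At tre-5 (chromosome II, 52997 to 55304, reverse strand) the strongest candidate had a signal of 7.58 and ranked 3084, in a coding exon 1706 bp downstream of the 5′ end. That summit and the other tre-5 candidate (5.49, rank 8464, 653 bp upstream of the 5′ end) both lay within sptl-1 as well, a serine palmitoyltransferase gene that spans tre-5 on the other strand. Replicate 2 listed 1 peak at tre-5 (5.78, rank 5338), 103 bp from the exonic summit, and replicate 1 listed 0. For the upstream candidate, the nearest replicate summits were 2256 bp away in replicate 2 and 4249 bp in replicate 1. Its −log10 q was 0.67. The window of the upstream candidate, at chrII:55877-56037, is shown because TGATAA and AGGTCA overlap there by a single base, starting 76 and 71 bp before the summit.
tre-5: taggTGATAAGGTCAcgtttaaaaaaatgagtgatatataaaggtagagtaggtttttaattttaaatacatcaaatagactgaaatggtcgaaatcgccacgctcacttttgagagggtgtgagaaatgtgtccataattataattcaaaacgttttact

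At tre-2 (chromosome IV, 6876731 to 6883442, reverse strand), which has 3 annotated 5′ ends, the strongest candidate had a signal of 7.51 and ranked 3188, in a coding exon 201 bp downstream of an internal 5′ end. The replicate 1 peak there (2.56, rank 4467) lay 54 bp downstream of the same end, and the nearest replicate 2 peak (5.03, rank 7935) was 214 bp from it. Replicate 2 had its strongest tre-2 peak elsewhere, at 6.88 and rank 2987, in an intron.

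At tre-3 (chromosome V, 11709769 to 11715903, reverse strand) there were 5 pooled candidates, all in introns, with signals from 2.94 to 6.96. The strongest ranked 4107 and lay 308 bp upstream of the internal 5′ end. Replicate 2 listed 5 peaks and replicate 1 listed 0. The strongest in replicate 2 (7.14, rank 2592) was elsewhere, 1753 bp downstream of that internal 5′ end. The replicate 2 summit nearest to the strongest pooled candidate was 164 bp away (4.32, rank 11568). The intronic candidate of signal 5.09 and rank 10318, at chrV:11710977-11711137, had a −log10 q of 0.56. It is shown because AGGTCA starts 22 bp before its summit, with GAGAGA 31 bp before it.
tre-3: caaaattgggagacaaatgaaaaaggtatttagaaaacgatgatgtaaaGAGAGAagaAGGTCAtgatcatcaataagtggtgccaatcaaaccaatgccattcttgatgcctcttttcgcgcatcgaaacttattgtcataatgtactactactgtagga

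None of these 4 trehalase genes had a candidate among the 1000 strongest, where tre-1 had 1, against 4.61% of all genes.

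None of the synthesis genes had a candidate among the 1000 strongest either. The gob-1 gene (chromosome X, 15493602 to 15497504, forward strand), the phosphatase that completes the pathway, had 1 pooled candidate, with a signal of 8.27 and rank 2224. It lay at 15492726 to 15493065, with its summit 706 bp upstream of the 5′ end and in no annotated gene. Replicate 2 had it at 5.96 and rank 4856, with a summit 64 bp away. Replicate 1 had its only gob-1 peak (2.47, rank 4871) in an intron instead, 2667 bp downstream of the 5′ end. The window of the upstream candidate, at chrX:15492816-15492976, is shown as the only candidate of the gene. It holds AAGTCA on the reverse strand, 67 bp after the summit.
gob-1: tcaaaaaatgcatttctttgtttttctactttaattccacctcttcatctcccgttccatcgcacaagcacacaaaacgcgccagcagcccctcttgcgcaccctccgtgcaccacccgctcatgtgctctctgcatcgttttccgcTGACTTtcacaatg

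The 2 synthase genes were the longest of the 8 and had no peak in replicate 1. At tps-1 (chromosome X, 17467121 to 17474534, reverse strand) none of 5 candidates exceeded 4.58, the lowest maximum of the 8 genes, reached by 2 intronic candidates at ranks 13252 and 13255. The 5′ end nearest to both was that of ZK54.3, the next gene. Another tps-1 candidate, with a signal of 4.16 and rank 16147, lay 160 bp upstream of the tps-1 5′ end, and replicate 2 listed it 6 bp away as its strongest tps-1 peak (4.84, rank 8704). At tps-2 (chromosome II, 14600902 to 14610554, forward strand) the strongest candidate had a signal of 7.50 and ranked 3197, in an intron. Its summit lay within F19H8.2, a gene nested there on the other strand, 29 bp upstream of a 5′ end of that gene. The nearest tps-2 end was 3573 bp away. AGGTCA on the reverse strand starts 11 bp after the summit. Another tps-2 candidate, at 3.14 and rank 25990, was 36 bp inside arl-3, an Arf-like GTPase gene nested in the same gene. Replicate 2 listed both summits at the same bases but in the reverse order of strength. The one in F19H8.2 had 4.40 (rank 11065) and the one in arl-3 had 4.81 (rank 8851).

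**Figure D2:**
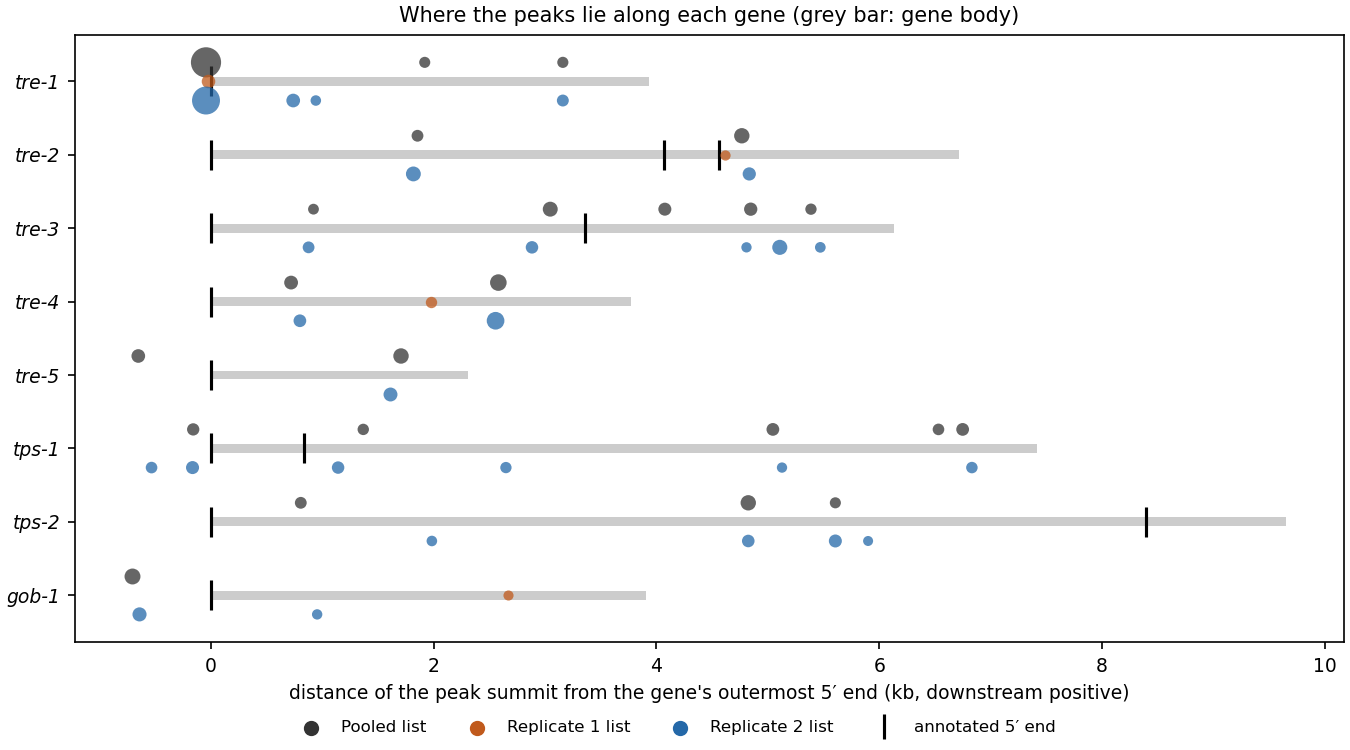
Summits of all listed peaks along the 8 genes, in kb from the outermost annotated 5′ end with downstream positive. Grey bars are gene bodies, black ticks annotated 5′ ends, and larger points higher signals within a list. The strongest tre-1 points of the 3 lists meet within 45 bp of the 5′ end, while at tre-4 and gob-1 the replicate 1 point lies away from the others.

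Across the 8 genes there were 23 pooled candidates, 13 in introns, 6 in coding exons and 4 outside the gene, and 11 of the 23 were within 1000 bp of the gene's own 5′ end. For 6 of them the nearest protein-coding 5′ end belonged to another gene. Most of each searched window was gene body, and these positions have no share over all genes beside them. Apart from the tre-1 peak at 3.16, the −log10 q of the candidates ran from 0.11 to 1.89. No tps-1 candidate exceeded 0.43, and the highest value of a tre-3 candidate was 1.14. In the replicate lists tre-1 was not alone at the highest value. The strongest tre-4 peak of replicate 2 was at 3.16, which 716 peaks of that list reached. In replicate 1 the tre-4 peak was at 3.80, which 3188 peaks reached, with 3.51 at gob-1 and 3.47 at tre-2. The limit of 1000 bp left out few: a tre-1 candidate 1296 bp upstream (5.03, rank 10607, 54 bp from the 5′ end of ucr-11) and a gob-1 candidate 1705 bp upstream (3.43, rank 22753). Among candidates outside a gene body, the farthest within the limit were those of gob-1 at 706 bp and tre-5 at 653 bp.

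All 8 genes had a pooled candidate, as did 66.7% of all genes, and all 8 had a replicate 2 peak, against 65.0%. Replicate 1 listed a peak at 4 of 8 (tre-1, tre-2, tre-4 and gob-1), against 26.6%. The members' windows were long, however, at a median of 6036 bp against 3045 bp over all genes, and longer windows hold more peaks. A group of 7704 genes with windows in the members' range (3308 to 10653 bp) was chosen after the values were seen. Its shares were 79.5% for the pooled list, 77.9% for replicate 2 and 34.4% for replicate 1. Window lengths within that range were not matched to those of the members. The members held a median of 0.507 pooled candidates per kb, against 0.306 over all genes and 0.284 over the genes in that window range.

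The strongest pooled signal of a member had a median of 7.54, against 5.13 over the 13324 genes with a candidate and 5.35 over those in the members' window range. It was above 5.13 in 7 of the 8 genes, with tps-1 the exception. In replicate 1, where 4 members were listed, the medians were 2.97 and 2.88. In replicate 2 they were 6.42 and 4.56. No spread between replicates is available for these list-level values, and the genes were chosen with results known, so the gap between members and all genes is a description.

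**Figure D3:**
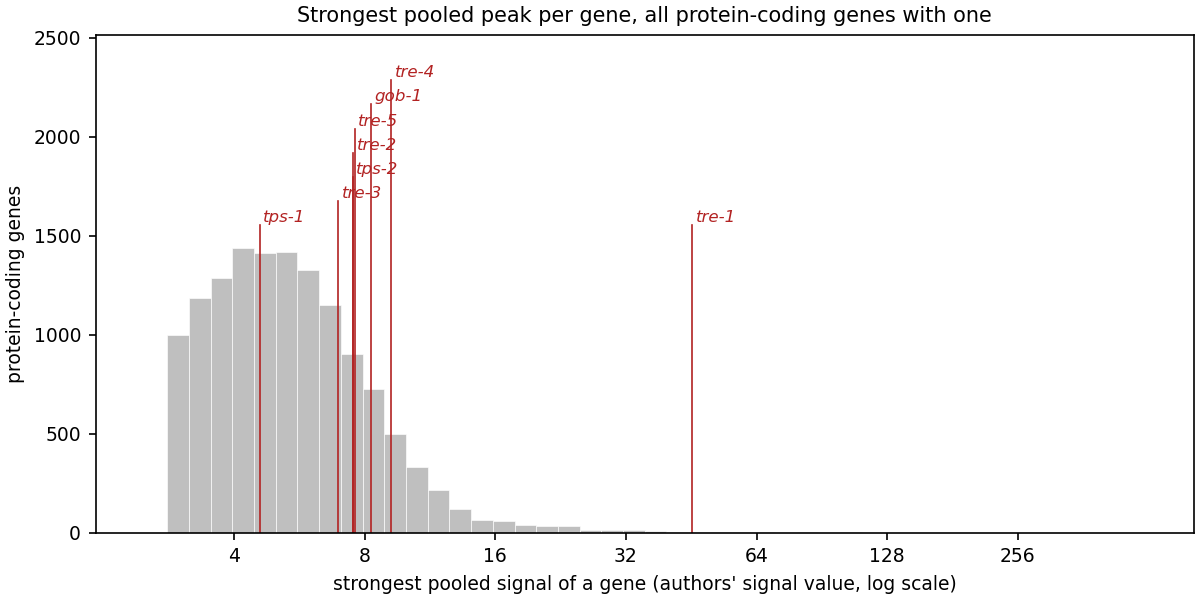
Strongest pooled signal of each of the 13324 protein-coding genes with a candidate, as a histogram over a log axis, with the 8 genes drawn as lines. Between 6.96 and 9.20 lie 6 of the genes, tps-1 sits at 4.58 in the bulk, and tre-1 stands alone at 45.4.

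Agreement between the replicates at one position was found at tre-1. Its replicate summits were 20 bp apart, and summits matched within 100 bp at 1 of the 8 genes against 4.99% of all genes (6.11% of those in the members' window range). Nothing is read from this comparison. The tre-1 peak led to the choice of the genes, and its place on the final list already rests on the replicate lists through the IDR procedure. At tre-2 the closest summits were 214 bp apart, at tre-4 576 bp and at gob-1 1714 bp. Of the 23 pooled candidates, 15 had a replicate 2 summit within 100 bp (54.1% of all 29979 nuclear candidates did) and 1, at tre-1, had a replicate 1 summit that close (10.7% of all). The pooled list was made from the alignments of both replicates, so a replicate summit near a pooled one is not an independent finding.

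The genes most like tre-1 in the strength of their strongest peak were found by summing the absolute log2 differences from its signals over the 3 lists, among 4065 other genes with a peak in all of them. The first was dad-1 at 0.00, because it shares the peak. Next came T13C5.6 at 0.77, with signals of 34.8 in the pooled list, 4.83 in replicate 1 and 31.4 in replicate 2, and its summit 170 bp upstream. Then came the peroxidasin gene pxn-1 at 0.90, whose peak lay 5701 bp downstream of the 5′ end, the cohesin-loader gene scc-2 at 0.97, 182 bp upstream, and C16C10.4 at 0.98, 168 bp upstream. The strongest pooled peak of each of these genes was on the final list, and the distances given are those of the pooled summits. The strongest peaks in the replicates ranked from 64 at pxn-1 to 1239 at C16C10.4 in replicate 1. In replicate 2 they ranked from 22 at pxn-1 to 37 at scc-2. For the genes after dad-1, whether the replicate peaks lay at the pooled summits was not examined.

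Around trehalose, 54 genes in 6 related lists were examined in the same way, and 1, hxk-2, had a final peak (0.716% of all genes did). In these lists 49 of 54 genes had a pooled candidate (66.7% of all genes did), 46 a replicate 2 peak (65.0%) and 21 a replicate 1 peak (26.6%). These shares over all genes are not matched for window length. Of the 6 genes that make the precursors of trehalose, hxk-2, a hexokinase gene, had a candidate of 24.6, rank 79, on chromosome I with its summit 280 bp upstream of the 5′ end. That summit lay closer, at 137 bp, to the 5′ end of cdk-9, a transcription elongation kinase gene. The strongest hxk-2 peak of each replicate ranked 734 in replicate 1 and 96 in replicate 2. Whether these lay at the pooled summit was not examined. Another precursor gene, gpi-1 (glucose-6-phosphate isomerase), had a candidate of 12.7, rank 426, 163 bp upstream of an internal 5′ end. The strongest gpi-1 peak of replicate 2 ranked 292, also without a check of its position, and replicate 1 listed 0 peaks at the gene.

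The remaining lists held 2 genes with a candidate among the 1000 strongest. These were swt-5, a SWEET-type sugar transporter gene (12.5, rank 460, in an intron), and gpdh-2, a glycerol-3-phosphate dehydrogenase gene (10.6, rank 828, 355 bp upstream of an internal 5′ end). With the 2 precursor genes that made 4 of 54, against 4.61% of all genes. The lists for glycogen (10 genes), for glycolysis and gluconeogenesis (19) and for the glyoxylate cycle (1 gene, icl-1) had none there, and their median strongest signals were 4.19, 5.67 and 7.14. In the lists for sugar transport (7) and osmotic and desiccation response (11) the medians were 6.68 and 4.64.

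**Figure D4:**
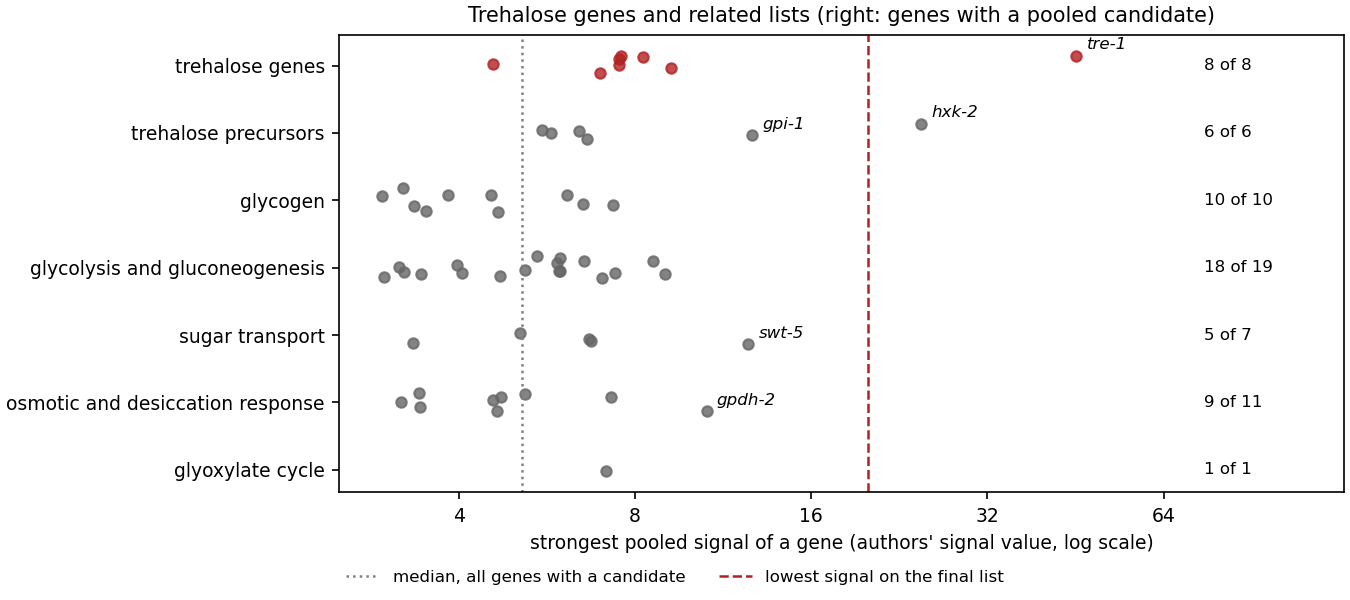
Strongest pooled signal of each gene, on a log axis, for the 8 trehalose genes and the 6 related lists, with the number of genes that have a candidate at the right. Points are spread vertically for visibility. The tre-1 point at 45.4 and the hxk-2 point at 24.6 lie right of the dashed line at the lowest final signal.

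AGGTCA was within 100 bp of the summit in 4 of the 23 candidates, at tre-3 (2), tre-5 and tps-2, against 5.55% of all 29979 candidates. AAGTCA was in 1 (9.39% of all), TGATAA in 5 (16.8%), GTAAACA in 0 (2.47%) and GAGAGA in 2 (14.9%).

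The window of the strong tre-1 peak, 100 bp to each side of its summit, had a GC content of 49.8%, above every other member candidate, where the range was from 26.9% to 46.8% and the median over all 23 was 36.8% (38.3% over all candidates). In promoters of 300 bp, AGGTCA occurred at tre-1 alone among the 8 genes, 247 bp before the 5′ end on the opposite strand and so well upstream of the peak summit. It was in 8.27% of all 19973 promoters. AAGTCA was found at tps-2 (13.3% of all), TGATAA at tre-3, tre-5 and gob-1 (30.2%), GTAAACA at gob-1 (4.77%) and GAGAGA at tre-4, tre-5, tps-1 and tps-2 (21.8%). A match of letters describes the sequence and is not a binding site.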

How the data were processed

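Per the deposited README files, the authors made a ce11 list of peaks and background from the alignment of each of the 2 replicates and from both pooled, each with 1 further file that all of them share and that also entered the control-normalized signal, and derived a final list from these by the irreproducible discovery rate (IDR) procedure. Aligner, peak caller and IDR threshold were not given in the sources used here. In narrowPeak order, column 7 of the deposited lists is the authors' signal score per peak, and column 9 the −log10 q-value. Read counts are not part of these lists, so depth and its precision are unknown. The ce10 lists were not used here, since no ce10 annotation was at hand.

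Genes were given peaks by summit, in the body or within 1000 bp of an annotated 5′ end (Ensembl release 115, WBcel235, the assembly of ce11), so 1 peak can count for several genes. Ranks are by signal within a list. The same rule gave the shares of all 19973 nuclear protein-coding genes. Replicate summits within 100 bp counted as matched. Motifs were searched on both strands within 100 bp of summits and in promoters, from 250 bp before to 50 bp after the outermost 5′ end. The genes and the related lists were chosen with earlier results of these data known, and no test was run. Genes named are the 8 members, related genes with a final peak or a candidate among the 1000 strongest, the gene with the 5′ end nearest to a member's strongest peak, and the 5 genes most like tre-1; others were chosen after their values were seen. Placement was checked on planted peaks. Alternatives were other distances, windows and overlap rules, the 70 strongest final peaks, and each replicate alone. Python 3.11.15, pandas 2.3.3, NumPy 2.4.6 and matplotlib 3.10.9 were used.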

Additional observations from a re-analysis of the deposited data

How the results depend on the processing

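No paired analysis was possible because the study has 1 group and no test was run. The final peak at tre-1 was kept at every distance and overlap rule tried and among the 70 strongest final peaks. The IDR procedure was not rerun, so the dependence of the final peak on each replicate was not tested. As a stand-in, the 140 strongest peaks of each replicate alone were taken. The number of the 8 genes with such a peak was 1 without replicate 1 and 0 without replicate 2. The tre-1 peak stood at the top 0.0767% of the 30000 peaks of replicate 2 and at the top 4.98% of the 7516 of replicate 1. These percentages depend on the lengths of the lists, which differ. The cause of this difference between the replicates was not tested. The number of the 8 genes with a listed peak was 8 in replicate 2 alone and 4 in replicate 1 alone, and the list of replicate 1 is the shorter one. Counting only peaks within 1000 bp of a 5′ end, replicate 1 held a peak at 2 of the genes in place of 4, since the gene body was left out. With the same stand-in, 1 of the 54 related genes had a peak among the 140 strongest of replicate 2 and 0 among those of replicate 1. With 2000 bp, 2 of the 54 had a final peak. The added gene was aagr-3, an alpha-glucosidase gene, with a final peak of 23.4 (rank 93) 1592 bp upstream. The other counts moved by less than 1.5 times. Shares of all genes are given for the main rule only, so the counts under other rules have no background beside them. A wider window can take in more peaks at any gene. No read numbers are given, so a peak not listed in replicate 1 cannot be told apart from one missed at its depth.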
